A study of Mus musculus with 9 samples.

Results

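The clock output gene Dbp, its opposite-strand neighbour Sphk2 and 8 further genes of the circadian clock were followed through 9 libraries of lung fibroblasts. The genes were taken by name, as the rows Dbp, Sphk2, Per1, Per2, Per3, Arntl, Nr1d1, Nr1d2, Tef and Nfil3. All 10 were found in the tables of 55302 gene symbols. A value above 0 in some library was seen for 17428 symbols. They were chosen by name with earlier results of these libraries known, among them the difference of Dbp between the groups, so that their differences between the groups are given as a description without a test.

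Fibroblasts were sorted from early-stage metastatic lungs of 9 female mice, of which 4 had PBS (also called saline) and 5 had the DNA-damaging anthracycline doxorubicin (DOX). All mice had received 4T1 or EO771 breast cancer cells in the mammary fat pad at 8 weeks of age, were BALB/c or C57BL/6 according to the cell line, and had the tumor removed after 2 weeks. The first dose followed 4 days later and the second after 5 more days, at 5 mg/kg of doxorubicin or the vehicle, and lungs were taken 24 h after the second dose. The labels do not say which tumor model or strain each library comes from, and they call each library a biological replicate. The gate was CD45-, EpCAM-, CD31- and PDGFRα+ in Methods, and CD31 is left out of the labels. The mice were kept on a light-dark cycle, and no source used here gives the hour at which lungs were taken.

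The circadian clock is a loop of transcription that cells run with a period of about a day. The activators Clock and Bmal1 (encoded by Arntl) bind E-box sequences and turn on the Per and Cry genes, whose proteins return to shut the activators off. A side loop runs through Nr1d1 and Nr1d2, the REV-ERB nuclear receptors that repress Arntl. Another arm includes the related factors Dbp and Tef, which activate genes through the D-box, and Nfil3, which represses through the same sequence. Per3 is one of the genes known to follow this arm. Sphk2 is no clock gene: it encodes sphingosine kinase 2, which makes the lipid signal sphingosine-1-phosphate, and it is described here because its exons cover the end of Dbp.

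The upstream sequences of Per3 and Nr1d1 are shown because they carry clock motifs and both genes reached the level set for the fit over all genes (below). They are the 250 bases before the RefSeq start on GRCm38.p6, both on the minus strand, and capitals mark the motif, TTATGTAA (D-box) in Per3 and CACGTT (E′-box, a variant of the E-box) read on the other strand in Nr1d1.
Per3 (chr4:151044666-151044915): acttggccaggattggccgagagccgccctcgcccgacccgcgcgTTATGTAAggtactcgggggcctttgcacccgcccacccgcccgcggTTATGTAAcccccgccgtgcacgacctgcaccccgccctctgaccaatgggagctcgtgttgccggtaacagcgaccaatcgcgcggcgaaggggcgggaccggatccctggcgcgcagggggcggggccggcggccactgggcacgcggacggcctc
Nr1d1 (chr11:98775378-98775627): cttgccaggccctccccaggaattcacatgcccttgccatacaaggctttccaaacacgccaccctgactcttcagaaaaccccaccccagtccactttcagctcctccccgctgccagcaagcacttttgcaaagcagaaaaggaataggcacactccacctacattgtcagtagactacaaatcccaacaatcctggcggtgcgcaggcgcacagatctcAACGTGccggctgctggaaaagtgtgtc
The Per3 window held 2 D-boxes, starting 205 and 158 bases before the start site, and the Nr1d1 window held 1 E′-box, starting 28 bases before it. Searched on both strands in the same window of 32851 RefSeq start sites, the D-box was in 0.819% and 2 or more D-boxes were at 6 sites, whereas the E′-box was in 3.85%, the E-box CACGTG in 6.02% and the core AGGTCA of the element bound by REV-ERB receptors in 14.0%. The E-box was found before 1 start of Per1 and both starts of Tef, and AGGTCA before Per1, Nr1d2 and Nfil3, with no overlap of motifs. Dbp, Sphk2 and Arntl held none of these 4 motifs in the window. The table of starts had an entry for 9 of the 10 genes and none for Per2. These matches describe letters in a window and not bound sites.

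MARS-seq, the library method, takes tags from the 3′ ends of polyadenylated transcripts and preserves strand. The values are normalized counts, that is reads per gene after division by each library's size factor, and all values of each library were whole multiples of 1 read. Read totals were 497637 to 734114 in PBS and 432322 to 1285816 in DOX. Fibroblast markers were present, with Col1a1 at a mean of 1575 normalized counts and Dcn at 80.5, whereas Pdgfra, the gene of the sorting marker, was at 4.42 and Lum at 0.903. PBS replicate 4 stood apart with 1181 summed normalized counts of 14 granulocyte markers against 33.8 to 93.4 in the other libraries. DOX replicate 2 was the shallowest library and had 35.3% of its summed values in a ribosomal RNA feature, against 5.74% to 16.8% elsewhere. The results were also computed without these libraries.

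Of the 10 genes, Sphk2 stood far above the clock genes. Its mean over 9 libraries was 2926 normalized counts, the 23rd highest mean of all symbols, followed by Nr1d1 at 70.7, Dbp at 39.9, Per3 at 39.9 and Tef at 8.24. Dbp and Per3, neighbours in this order, did not differ beyond their spread. Per kilobase of annotated exon, the mean normalized count was 704 for Sphk2, 23.0 for Nr1d1, 13.3 for Dbp, 4.15 for Per3 and 1.05 for Tef, the same order, with Dbp now above Per3. Because tags come from transcript ends, a longer gene need not yield more of them, so both scales are given. Sphk2, Nr1d1, Dbp and Per3 reached 10 normalized counts in at least 4 libraries, the level set for the fit over all genes, and 6 genes did not. Tef lay just outside, with 3 libraries at 10 or more, and Per3 inside with 8.

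**Figure D1:**
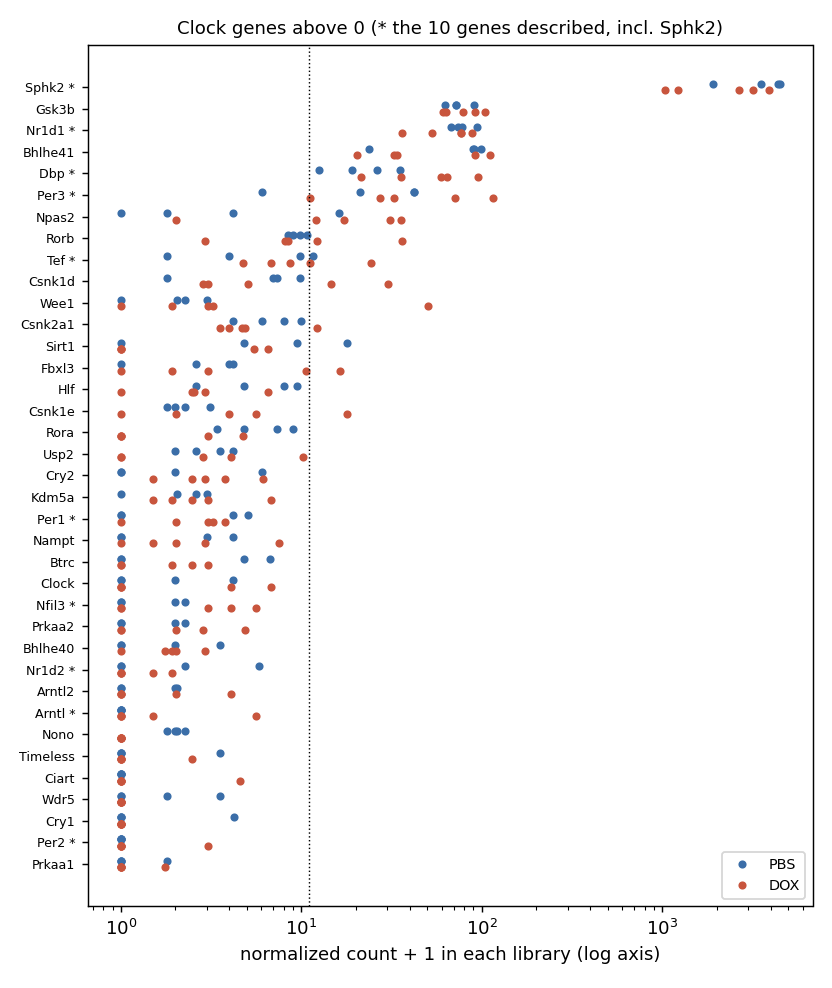
Normalized count plus 1 (log axis) of each library for the 10 genes (marked by a star) and the other listed clock genes above 0, PBS libraries in blue and DOX libraries in red, ordered by mean. The dotted line marks 10 normalized counts; Sphk2 lies farthest right in all 9 libraries and most clock genes lie left of the line.

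The row named Dbp was higher in most DOX libraries than in the PBS libraries, with overlap. Its normalized counts were 18.0, 11.6, 34.1 and 25.1 in PBS replicates 1 to 4. In DOX replicates 1 to 5 they were 20.4, 34.8, 58.2, 63.5 and 93.7. DOX replicates 3, 4 and 5 lay above every PBS library, DOX replicate 2 lay just above the highest of them, PBS replicate 3, and DOX replicate 1 lay among them. PBS libraries averaged 22.2 (SD 9.65, n = 4) and DOX libraries 54.1 (SD 28.2, n = 5), a ratio of 2.44. The fitted difference on the log2(normalized count + 1) scale, DOX minus PBS, was 1.17 with a standard error of 0.49. The values rest on 11 to 183 reads per library, for which counting error predicts a coefficient of variation of 21.6% in PBS and 13.8% in DOX. The observed values were 43.5% and 52.1%. In bulk samples fewer cells that carry a transcript and less RNA per cell cannot be told apart. None of the 4 genes at fitted level, Dbp, Sphk2, Per3 and Nr1d1, had groups that did not overlap, against 2.65% of the 2604 genes tested, and limma called 0.0% of those 2604 genes between the groups at an adjusted p under 0.05.

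Sphk2 was lower on average in the DOX libraries, also with overlap. Its normalized counts were 4468, 4393, 3527 and 1915 in PBS replicates 1 to 4. In DOX replicates 1 to 5 they were 1228, 1029.7, 2676, 3907 and 3191. DOX replicates 1 and 2 were the lowest of all and DOX replicates 3, 4 and 5 lay among the PBS libraries. PBS libraries averaged 3576 (SD 1187, n = 4) and DOX libraries 2406 (SD 1248, n = 5), 1.49 times higher in PBS, and the fitted log2 difference was -0.68 with a standard error of 0.37. Without DOX replicate 2 this difference was -0.42. Here counting error was small, at 1.70% and 2.07% of the mean if each read counts as independent. The observed coefficient of variation was 33.2% in PBS and 51.8% in DOX, so that nearly all of the spread lay beyond this counting error.

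**Figure D2:**
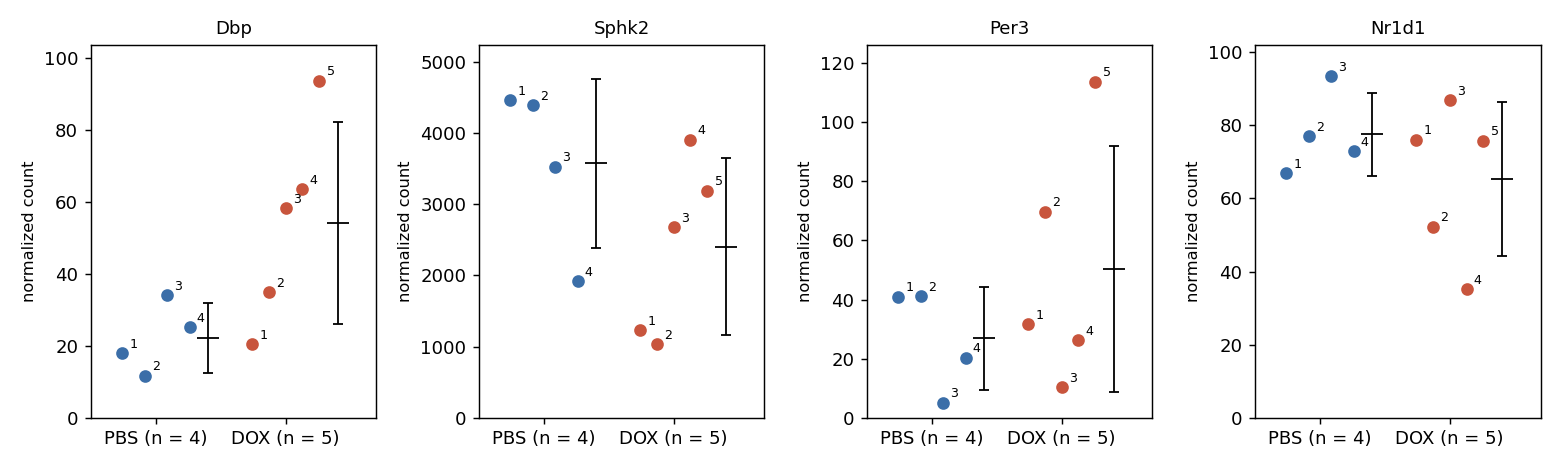
Normalized counts of Dbp, Sphk2, Per3 and Nr1d1 in each library, PBS in blue (n = 4) and DOX in red (n = 5), numbered by replicate, with the mean and SD of each group in black beside them. The groups overlap for each of the 4 genes, and 3 of the DOX libraries of Dbp lie well above its highest PBS library at 34.1.

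Dbp and Sphk2 run towards each other on chromosome 7 of mm10. In GENCODE M21, Dbp spans 45705088 to 45710203 on the plus strand and Sphk2 spans 45709467 to 45718002 on the minus strand, and RefSeq gives the same last base of Dbp and 45709463 for the end of Sphk2. All 5 annotated Dbp transcripts end inside the last exon of Sphk2, 45709467 to 45711811, between 429 and 736 bases from where Sphk2 itself ends, and the genes share 539 exonic bases. None of the 4 Sphk2 transcripts ends in an exon of Dbp. A tag from the end of Dbp therefore falls on bases of the last exon of Sphk2 and differs from that exon in strand, whereas a tag from the end of Sphk2 itself can lie outside the shared bases. The strand setting of the count is not given in the sources used here. Whether tags of Dbp were counted under Sphk2 therefore cannot be told apart from expression of Sphk2 itself. Nor is it known whether the row named Dbp holds Dbp transcripts. Levels, differences, shares and likeness given for Dbp and Sphk2 are those of the rows so named, and which strand they hold was not tested.

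**Figure D3:**
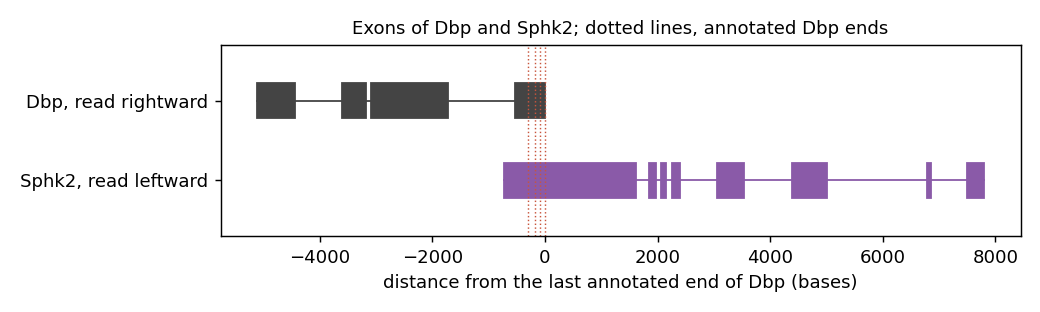
Exons of Dbp (top) and Sphk2 (bottom) drawn to scale by distance in bases from the last annotated end of Dbp, with dotted lines at the annotated Dbp ends. All dotted lines cross the last exon of Sphk2, the long exon at its left.

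Within the pair, the share of reads that fell to Dbp needs no scaling between libraries. Dbp took 0.401%, 0.264%, 0.957% and 1.29% of the reads of both genes in PBS replicates 1 to 4. In DOX replicates 1 to 5 it took 1.64%, 3.27%, 2.13%, 1.60% and 2.85%. The lowest DOX library lay above the highest PBS library, although the exact 95% binomial intervals of the nearest libraries overlapped, 0.881% to 1.83% in PBS replicate 4 and 1.28% to 1.97% in DOX replicate 4. The intervals cover counting error only. The share averaged 0.729% (SD 0.482, n = 4) over PBS and 2.30% (SD 0.744, n = 5) over DOX libraries, and Sphk2 had 76.3 to 378 reads for each read of Dbp in PBS and 29.6 to 61.5 in DOX. The mean log2 ratio of Dbp to Sphk2 reads was -7.37 (SD 1.08) in PBS and -5.47 (SD 0.48) in DOX, a difference of 1.90, and without PBS replicate 4 and DOX replicate 2 it was 2.12. This share combines the differences of Dbp and Sphk2 that were known when the genes were chosen and is no test. Among 25 opposite-strand pairs with at least 10 reads in every library it was the 1 pair (4.0%) in which the covered gene's share was higher in every DOX library, and in 1 other pair it was lower in every DOX library.

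**Figure D4:**
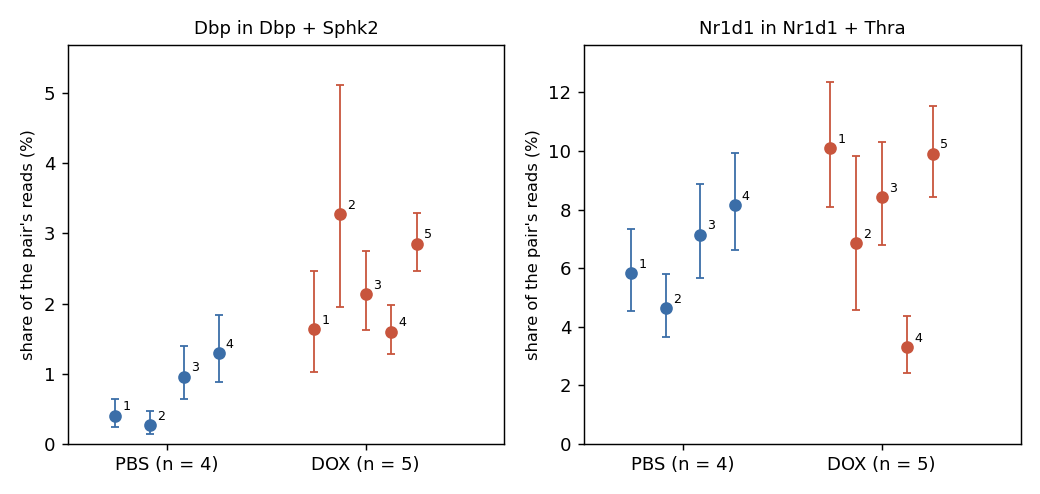
Share of Dbp in the reads of Dbp and Sphk2 (left) and of Nr1d1 in the reads of Nr1d1 and Thra (right), in percent, per library with exact 95% binomial intervals for counting error, PBS in blue and DOX in red, numbered by replicate. The Dbp share lies between 0.264% and 1.29% in PBS and between 1.60% and 3.27% in DOX, and the Nr1d1 shares of the groups overlap.

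Other genes are laid out like this pair. In 64 opposite-strand pairs of protein-coding genes with a value above 0, the exons of one gene covered every annotated end of the other and the reverse was not the case. The covering gene had the higher mean in 38 of them (59.4%). With 1 added to each mean, it was over 10-fold higher in 13. By the ratio of covering to covered mean on this scale, the Dbp and Sphk2 pair ranked 7th. The largest ratio was that of Tlcd1 over Rpl23a, a ribosomal protein gene, with means of 7958 and 2.27 normalized counts. At the other extreme Hspa1a, the inducible HSP70 gene, had a mean of 32.8 and Gm20481, whose ends it covers, 7467. Sphk2 over Dbp was thus far from the median log2 ratio of means plus 1, at 6.16 against 0.29, but not alone.

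**Figure D5:**
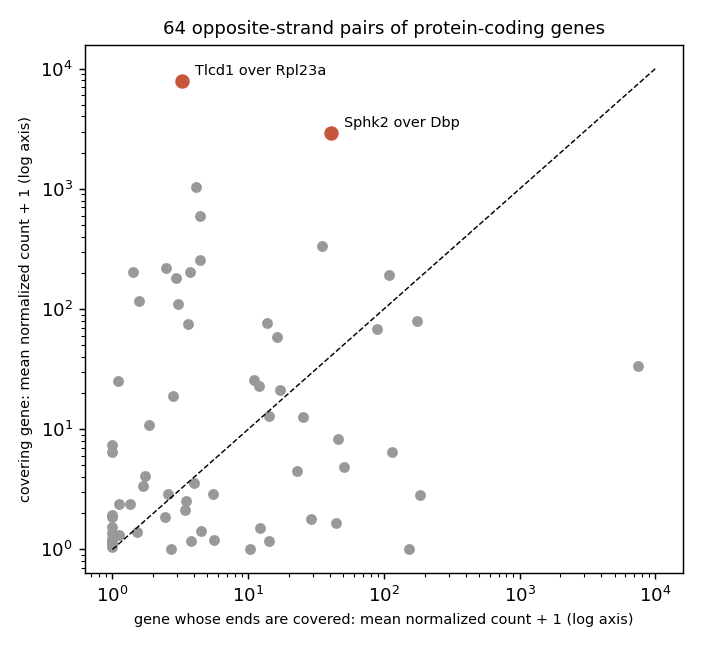
Mean normalized count plus 1 over 9 libraries (log axes) of the covering gene against the gene whose ends it covers, 1 point for each of 64 pairs, with the dashed line at equal values. Sphk2 over Dbp and Tlcd1 over Rpl23a (red) lie far above the line, and points lie on both sides of it.

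Across all 9 libraries the levels of Dbp and Sphk2 did not run together. Pearson's r of log2(normalized count + 1) between Dbp and Sphk2 was 0.01 and Spearman's rho was -0.27, and Sphk2 ranked 1303 among 2603 tested genes by likeness to Dbp. As deviations from the mean of each group, r was 0.47 and rho 0.47, and Sphk2 ranked 342. Within DOX the lowest library of Dbp, replicate 1, had the second lowest Sphk2, and within PBS the lowest library of Dbp, replicate 2, had the second highest. These are descriptions over 9 libraries, which share the scaling and, as measured, the group difference.

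The genes most like Dbp over the 9 libraries were Wdr5b (r = 0.96), Alyref (0.89), Rufy2 (0.87), 2700081O15Rik (0.85) and Olfr77 (0.85). On deviations from the group means they were Wdr5b (0.98), Gpha2 (0.94), Plcxd1 (0.92), Cabp7 (0.89) and Gm42846 (0.88). Wdr5b, on chromosome 16, led both lists, and no clock gene was among these. For Sphk2 the most alike were 4930451E10Rik (0.90), Picalm (0.90), Gmppb (0.88), Gm17035 (0.87) and Brf2 (0.87). On deviations they were Ifngr2 (0.95), Lyrm4 (0.93), Brf2 (0.92), Dnaja1 (0.92) and Fut2 (0.92). They are the top 5 of 2603 genes by value, over few libraries.

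Per3, a period gene and target of the D-box arm, varied most of the genes at fitted level. Its normalized counts were 41.0, 41.2, 5.05 and 20.3 in PBS replicates 1 to 4. In DOX replicates 1 to 5 they were 31.6, 69.7, 10.2, 26.1 and 113.7. Replicate 3 was the lowest library of each group, and DOX replicates 2 and 5 lay above all PBS libraries. PBS libraries averaged 26.9 (SD 17.5, n = 4) and DOX libraries 50.3 (SD 41.7, n = 5), and the fitted log2 difference of 0.80 had a standard error of 0.69. Without PBS replicate 3 it was 0.19 and without DOX replicate 3 it was 1.24. With 2 D-boxes upstream (above) Per3 could be looked at beside Dbp, and r between the 2 genes was 0.06 over 9 libraries and -0.22 on deviations from the group means. DOX replicate 5 was the highest library of both, and DOX replicate 3, high in Dbp, was low in Per3.

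Nr1d1, which encodes the repressor REV-ERBα, was the steadiest. Its normalized counts were 66.9, 77.1, 93.4 and 72.9 in PBS replicates 1 to 4. In DOX replicates 1 to 5 they were 76.1, 52.3, 86.8, 35.1 and 75.8. Most libraries of both groups lay in the same range, and DOX replicates 2 and 4 were the lowest. PBS libraries averaged 77.6 (SD 11.3, n = 4) and DOX libraries 65.2 (SD 21.0, n = 5), with a fitted log2 difference of -0.31 and a standard error of 0.34, which was -0.10 without DOX replicate 4. In PBS its observed coefficient of variation of 14.6% was close to the 11.5% predicted by counting error, and in DOX it was 32.3% against 12.6%.

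Nr1d1 also meets a gene on the other strand, Thra, which encodes the thyroid hormone receptor α. Thra (chromosome 11, 98740638 to 98769006, plus strand) and Nr1d1 (98767932 to 98775333, minus strand) share 263 exonic bases. Here 1 of 9 Thra transcripts ends in an exon of Nr1d1, and Thra exons cover neither end of Nr1d1. Thra had 1081, 1586, 1214 and 822 normalized counts in PBS replicates 1 to 4 and 678, 710, 944, 1033 and 690 in DOX replicates 1 to 5, and the groups overlapped. Nr1d1 took 4.63% to 8.15% of the reads of both genes in PBS and 3.29% to 10.1% in DOX, so that this pair showed no separation of the groups like that of Dbp and Sphk2.

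Tef, another activator of the D-box arm, was present in all 9 libraries at low values. Its normalized counts were 3.00, 10.6, 8.84 and 0.810 in PBS replicates 1 to 4. In DOX replicates 1 to 5 they were 10.2, 5.81, 23.5, 3.73 and 7.68. DOX replicate 3 alone stood above all PBS libraries. In summed reads Tef had 21 in PBS and 57 in DOX, or 8.64 per 1000000 reads (exact 95% Poisson interval 5.35 to 13.2) and 14.7 per 1000000 (11.1 to 19.1), intervals that overlap and cover counting error only. Nfil3, the repressor of that arm, had 2 reads in PBS and 12 in DOX, with a highest value of 4.64 normalized counts in DOX replicate 1.

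The rows of the core of the loop held few reads. Since the strand setting of the count is not given, how far such low rows reflect low transcript levels was not tested. Arntl, the gene of the activator Bmal1, had 0 reads in PBS and 6 in DOX, 5 of them in replicate 1. Per2 had 0 reads in PBS and 4 in DOX, all of them in replicate 5, the deepest library. For both, 0 of 2430976 reads in PBS allowed up to 1.52 reads per 1000000 by the exact Poisson interval. The DOX levels were 1.55 for Arntl (interval 0.569 to 3.37) and 1.03 for Per2 (0.281 to 2.64). These intervals of summed reads cover counting error only and not the spread between mice. Per1, which responds fast to hormones in many tissues, had 8 reads in PBS and 10 in DOX, at 0 to 4.05 normalized counts per library. Nr1d2, the partner of Nr1d1, had 7 and 2 reads. Together the 6 genes below the fitted level held 129 of 6303233 reads, and no difference between the groups is read from them.

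Another 30 genes of the clock, its kinases, ubiquitin ligases and outputs were looked up in the same way. Fbxl21 and Ppargc1a were at 0 in all libraries, the mean of 20 of the 27 that were above 0 somewhere was under 5 normalized counts, and 3 reached the level for testing. None of these 3 passed in either direction by limma, adjusted over all genes tested. Npas2, which can stand in for Clock, averaged 4.78 (SD 7.04, n = 4) over PBS and 18.6 (SD 13.8, n = 5) over DOX libraries, a log2 difference of 2.04 with a standard error of 1.07 (limma, adjusted p = 0.769). Bhlhe41, a repressor of the activators, averaged 74.6 (SD 34.9) and 57.1 (SD 40.7), a log2 difference of -0.49 with a standard error of 0.55 (limma, adjusted p = 0.902). It fell into low libraries, PBS replicate 4 and DOX replicates 1 to 3 at 19.5 to 32.9, and high ones, the rest, at 87.9 to 110.1. Gsk3b, a kinase that phosphorylates clock proteins, averaged 73.2 (SD 11.8) and 78.9 (SD 18.4), with an adjusted p of 0.980 by limma. Clock itself was at a mean of 1.45, Cry1 at 0.360 and Cry2 at 1.99. Hlf, a relative of Dbp and Tef below the level for testing, averaged 5.21 over PBS and 2.11 over DOX libraries, with overlap.

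Of 12 listed genes (Sphk2 included) with a mean of at least 5 normalized counts, 5 were highest in DOX replicate 5. They were Dbp, Per3, Rorb, Bhlhe41 and Wee1. The rest, among them Sphk2, Nr1d1, Npas2, Tef and Gsk3b, were highest in other libraries. Of all 3944 symbols with such a mean, 13.6% were highest in DOX replicate 5. Whether the clock genes share a pattern in this library was not tested. Wee1, a cell cycle kinase and clock output, was at 49.7 normalized counts in DOX replicate 5 and at 0 to 2.24 in the other 8 libraries.

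Markers of cells outside the gate differed between the libraries too. The 12 epithelial markers, all above 0 somewhere, summed to 15.8 to 36.6 normalized counts in PBS replicates 1 to 3, 483 in PBS replicate 4 and 44.5 to 179 in DOX. Sftpc, a surfactant gene, had a median of 10.8 in PBS and 75.6 in DOX, Sftpb 2.85 and 26.6, and Cldn18 11.5 and 22.3. The club cell gene Scgb1a1 had medians of 4.52 and 3.71 and Ager 4.15 and 3.87, while Epcam, the gene of the gate, was at 0 in 6 libraries. The 14 granulocyte markers summed to 33.8 to 37.9 in PBS replicates 1 to 3 and 65.8 to 93.4 in DOX. Ly6g made up most of the sum in DOX and in PBS replicates 2 and 3, while Csf3r was at 0 in 8 libraries. The part of these cells in the values of Dbp was not tested. Without PBS replicate 4, the library richest in both lists, the log2 difference was 1.26 for Dbp and -0.96 for Sphk2.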

How the data were processed

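Fibroblasts of 9 mice (4 PBS, 5 DOX) were profiled by MARS-seq. Per Methods and the submitters' notes, STAR (mapping, mm10) and HTSeq (counting, with a RefSeq annotation) were used by the authors. No source used here gives versions or the strand setting. The authors deposited 1 normalized signal per gene and library, which is a read count divided by a library size factor. Whole reads were recovered from the steps of the deposited values (100% whole at a tolerance of 1e-06), and 119 repeated symbols were summed. Read totals ranged from 432322 to 1285816, and counting errors cover reads only.

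The genes and lists were chosen with earlier results of these data known. Groups came from the treatment label. The fit over all genes was limma-trend (limma 3.58.1, R 4.3.3) on log2(value + 1). It took the 2604 genes with values of 10 or more in 4 or more libraries, and p-values were adjusted by Benjamini-Hochberg at 0.05. It was tested on simulated counts. Standard errors of the 4 of the 10 genes that it covered come from it. Their p-values are not given. No source used here says whether reads were collapsed by molecular tags. If they were not, the counting errors and intervals, which take each read as independent, can be too narrow. Alternatives were edgeR 4.0.16, DESeq2 1.42.0, limma-voom, TMM scaling, other filters and pseudocounts, each library left out and the replicate number as a block. Leaving out libraries for the Dbp to Sphk2 ratio was added after seeing the data.

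Loci are from GENCODE M21 and upstream sequences from RefSeq (both mm10/GRCm38). Shares, intervals and correlations were computed in Python 3.11.15 with SciPy 1.17.1, NumPy 2.4.6 and pandas 2.3.3. Genes named were the 10 genes, the tested genes of a list of 30 further clock genes and those at 0 (1 gene of that list is not reported here), opposite-strand genes at an annotated end, and the 5 genes most like Dbp and Sphk2. Clock, Cry1, Cry2, Hlf, Rorb, Wee1, Tlcd1, Rpl23a, Hspa1a and Gm20481 were named after their values were seen, as were the markers of other cells picked out of their lists. The immediate early, heat shock and glucocorticoid lists were used as summed levels.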

Additional observations from a re-analysis of the deposited data

Results flagged for a closer look

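Of 24 sets of 4 or 5 libraries (each gene described, Thra and the shares, by group) 2 held a library whose distance to its neighbour was a large part of the whole range, where chance gives about 1 in 20. For Per2 in DOX this part was 1.0, since replicate 5 had 2.05 normalized counts from 4 reads and the others 0. For Arntl in DOX it was 0.890, with replicate 1 at 4.64 normalized counts, replicate 5 at 0.512 and the others at 0. Both sets lie near 0, where a few reads in a single library fix this part, so the chance figure does not apply to them.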

How the results depend on the processing

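Of the 19 alternatives, 18 left the number of genes called between DOX and PBS at 0, with 132 to 463 genes at an unadjusted p under 0.05. These counts come from unlike numbers of genes tested (edgeR 149 of 2618, DESeq2 463 of 17428, limma-voom 160 of 2618, limma as reported 162 of 2604). Without a filter on low values limma called 3, CT010467.1, Gm17300 and Gm20721, none of them a clock gene and all named after their values were seen. The other clock genes called stayed at 0 under each of the 19. The fitted log2 differences kept their sign under each of the 19, from 0.91 to 1.47 for Dbp, -0.96 to -0.42 for Sphk2, 0.19 to 1.24 for Per3, -0.43 to -0.10 for Nr1d1 and -0.68 to -0.36 for Thra. Pearson's r between Dbp and Sphk2 was 0.47 on deviations from the group means, against 0.01 as measured and -0.15 to 0.29 with a library left out. The cause was not tested. Same-numbered libraries were only weakly alike, since their deviations correlated at 0.02 to 0.07. Each of the numbers 1, 2 and 4 correlated best with its own, so these values do not settle whether replicate numbers pair the libraries. With the replicate block, without DOX replicate 5, the calls stayed at 0, the log2 difference was 0.94 for Dbp and -0.83 for Sphk2, and r was 0.26. The log2 ratio of Dbp to Sphk2 reads differed by 1.50 to 2.27 with a library left out, chosen after seeing the data. The 6 genes below the fitted level held 129 reads in all.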

Other observations

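Summed levels of 9 marker and response lists were set beside Sphk2 on the log2(value + 1) scale. This is a description over 9 libraries that share their scaling and, as measured, the group difference. Pearson's r ranged from -0.84 for 12 glucocorticoid response genes to 0.60 for 12 fibroblast markers. No r on deviations from the group means was computed for these lists. Of the 12 glucocorticoid response genes, Per1 among them, 4 reached the level for testing. The glucocorticoid list summed to 701, 929, 1043 and 1099 normalized counts in PBS replicates 1 to 4 and to 2191, 1802, 1379, 1268 and 969 in DOX replicates 1 to 5. DOX replicates 1 and 2, highest in this list, were the lowest in Sphk2. For Dbp r with the same list was 0.12, and its highest r was 0.60, with the epithelial markers. The 17 immediate early genes (566 to 952 over all libraries) and the 7 heat shock genes (47.8 to 174) had r of -0.35 and -0.39 with Sphk2. None of the tested genes of these lists was called by limma at an adjusted p under 0.05.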
